A study of Homo sapiens with 6 samples.

Results

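The genes described are 10 components of the Wnt pathway: the ligands WNT5A and WNT5B, the Frizzled receptors FZD1, FZD2 and FZD7, the co-receptors LRP5 and LRP6, and the inhibitors AXIN2, DKK1 and SFRP1. They were taken by name, with no measured value in the rule, as the rows whose symbol equals one of these names. The names themselves were chosen with earlier results of these data known. All 10 were among the 16907 genes of the count files and among the 14853 genes that passed the filter on low counts. RNA-seq was performed on poly(A) RNA from LX-2, an established human hepatic stellate cell line that represents the activated, matrix-producing state of these cells. OGT, the enzyme that attaches O-GlcNAc to nuclear and cytoplasmic proteins, was knocked down by transfection for 72 h with 20 nM siOGT, and the controls received 20 nM siControl for the same time. There were 3 libraries per group, numbered 1 to 3 in both, and the comparison asks how the transcript levels of these genes differ once OGT is depleted. Both groups are the same line in the same medium (DMEM with 5% serum) and went through the same JetPrime transfection. siOGT was a commercial pool of siRNAs and siControl a single negative-control siRNA from another supplier, so loss of OGT and the kind of siRNA cannot be told apart.

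Wnt ligands are lipid-modified secreted proteins that bind Frizzled receptors. With LRP5 or LRP6 beside the Frizzled, the signal stabilises beta-catenin, which enters the nucleus and activates TCF/LEF target genes, AXIN2 being a standard one; WNT5A and WNT5B are best known for beta-catenin-independent branches, which use ROR and RYK receptors and the planar polarity proteins. In the liver, hepatic stellate cells are a known source and target of Wnt ligands, and the pathway has been studied in their activation and in fibrosis.

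OGT itself was checked first. It was at 177.2, 137.1 and 121.2 CPM (counts per 1000000 counts of the TMM-scaled library size) in siControl 1 to 3, and at 39.9, 27.0 and 29.2 CPM in siOGT 1 to 3. The siOGT libraries thus kept 22.5%, 19.7% and 24.1% of the level in the siControl library of the same number, and the groups were far apart (log2 fold change -2.18 ± 0.07 SE, edgeR quasi-likelihood test with the replicate number as a block, adjusted p = 2.71e-12). The libraries held 25996770 to 27966801 estimated counts each. All 10 stellate and mesenchymal markers examined averaged at least 1 CPM, with ACTA2 the lowest of them at 4.83 to 9.69 CPM per library. Their summed level was 7510 to 8975 CPM in siControl and 6911 to 8000 CPM in siOGT. Of these, 2 were called higher (TAGLN and LOX) and 5 lower (COL1A1, COL1A2, COL3A1, PDGFRB and THY1). Markers of other liver cells reached 1 CPM in 1 of 7 for hepatocytes and 2 of 5 for cholangiocytes. They did so in 2 of 5 for endothelial cells and 2 of 6 for Kupffer and immune cells. ALB was at 0 to 3 counts and PTPRC at 9 to 23 counts per library. On the cholangiocyte list, SOX9 was at 83.1 to 122.4 CPM and KRT7 at 4.66 to 8.05 CPM per library. Of these markers, CD68 was called higher (136.96 ± 15.7 to 187.68 ± 17.5 CPM, mean ± SD, n = 3) and VWF lower, at 18 to 102 counts per library. The part of these markers in the results below was not tested.

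Of the 10 Wnt genes, 8 passed an adjusted p of 0.05 by edgeR with the replicate block: WNT5B was higher in siOGT, and WNT5A, FZD1, FZD7, LRP5, AXIN2, DKK1 and SFRP1 were lower. FZD2 and LRP6 were not called. The same test called 25.4% of all genes tested, 12.7% as lower and 12.7% as higher. Of the genes that averaged at least 1 CPM, as all 10 did, it called 29.9%. The median log2 fold change was -0.23 over the 10 genes and 0.01 over all genes tested. As the 10 were chosen with earlier results of these data known, these values describe them and do not test the set. The differences were modest in size, from -0.73 for AXIN2 to 0.41 for WNT5B on the log2 scale. CPM of the 2 groups did not overlap for 4 genes that were lower (FZD1, FZD7, AXIN2, SFRP1) and for 1 that was higher (WNT5B), against 11.8% and 12.1% of all genes tested. The calls rest on comparing libraries of the same number: without the block edgeR called 0 of the 10 (5 had an unadjusted p under 0.05) and 0.875% of all genes, whereas DESeq2 called 5 of the 10 and 16.3% of all genes with the block, and 2 of the 10 without it.

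**Figure D1:**
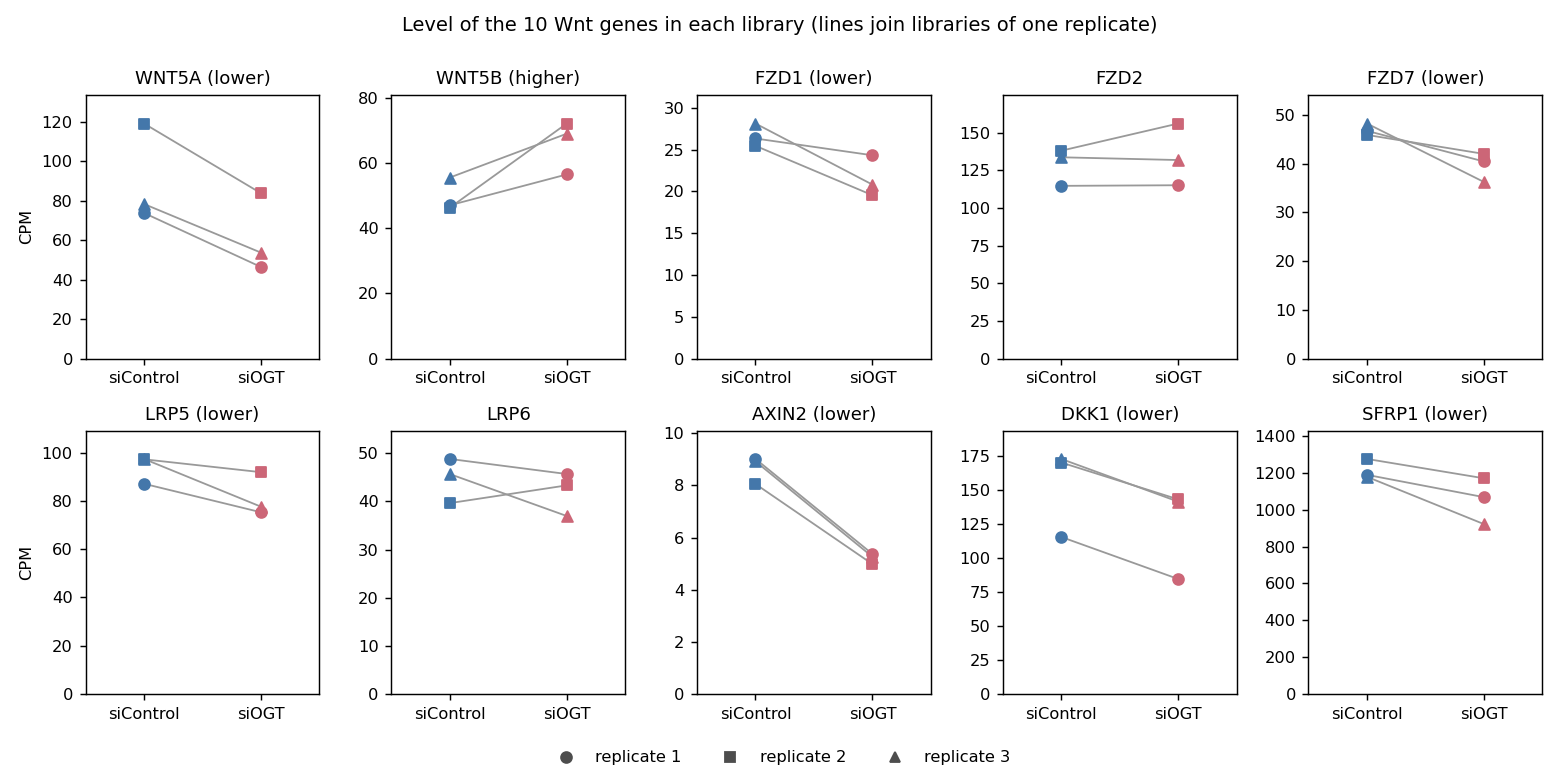
Level of each of the 10 Wnt genes in every library (CPM, each panel with its own axis), with lines joining the siControl and siOGT libraries of the same number. AXIN2 falls by a like amount along all 3 lines and WNT5B rises along all 3, while WNT5A and DKK1 fall along each line from starting levels that differ between the replicates.

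WNT5A, a secreted ligand of the beta-catenin-independent branches, lies on the minus strand of chr3:55465715-55490539 (hg38, GENCODE 44). It was at 73.8, 119.1 and 78.3 CPM in siControl 1 to 3 and at 46.4, 83.8 and 53.7 CPM in siOGT 1 to 3. Replicate 2 was high in both groups, so the groups overlapped, yet siOGT was the lower of each pair, with log2 ratios of -0.67, -0.51 and -0.55. The level fell from 90.4 ± 24.97 to 61.3 ± 19.8 CPM (mean ± SD, n = 3), a log2 fold change of -0.57 ± 0.07 SE (95% interval -0.71 to -0.43, edgeR with block, adjusted p = 1.32e-05). The replicate number held 57.3% of the spread of log2 CPM and the group 42.1%. The adjusted p was 0.245 by edgeR without the block and 1.89e-09 by DESeq2 with it. As these are bulk samples, fewer cells expressing a gene and less RNA of it per cell cannot be told apart, here and for every gene below.

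WNT5B, the close paralog of WNT5A, lies on the plus strand of chr12:1529891-1647212. Its levels were 47.0, 46.3 and 55.5 CPM in siControl and 56.5, 72.1 and 69.0 CPM in siOGT. Every siOGT library was above every siControl library, though siOGT 1 exceeded siControl 3 only slightly. The mean rose from 49.6 ± 5.14 to 65.9 ± 8.27 CPM (log2 fold change 0.41 ± 0.08 SE, 95% interval 0.24 to 0.57, edgeR with block, adjusted p = 0.00100). Without the block the adjusted p was 0.13 by edgeR and 0.0458 by DESeq2.

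The opposite changes of the 2 paralogs shifted their balance. The ratio of WNT5A to WNT5B counts was 1.57, 2.57 and 1.41 in siControl 1 to 3 and 0.821, 1.16 and 0.778 in siOGT 1 to 3. Each siOGT ratio was below all siControl ratios, and it fell within every pair, by 0.93, 1.15 and 0.86 on the log2 scale. With 3 pairs, an exact two-sided sign-flip test cannot give a p below 0.25, so the ratio is given without a test. When the counts of both genes were added into 1, the log2 fold change was -0.15 (edgeR with block, adjusted p = 0.107). No stretch of 50 bases in the transcripts of WNT5A or WNT5B occurs in those of another gene of the files, and all their deposited values were whole numbers.

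Levels were divided by exonic length to set genes side by side. This length counts every annotated exon of a gene, used in these cells or not, so comparisons between genes are approximate. On this scale WNT5A and WNT5B were the main Wnt ligands of these cells. The 17 ligand genes in the files, these 2 included, summed to 24.5, 30.9 and 26.7 CPM per kb in siControl and 22.8, 32.2 and 26.9 CPM per kb in siOGT, so the ligand pool overlapped between the groups. WNT5A held 45.7 ± 7.15% of that pool in siControl and 30.9 ± 4.75% in siOGT (mean ± SD, n = 3). WNT5B held 43.2 ± 7.09% and 57.3 ± 3.97%. WNT5A was thus 41.0% to 53.9% of the pool in the siControl libraries and 27.9% to 36.4% in the siOGT libraries. The next ligands, WNT3 and WNT9A, each held under 6% in every library.

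**Figure D2:**
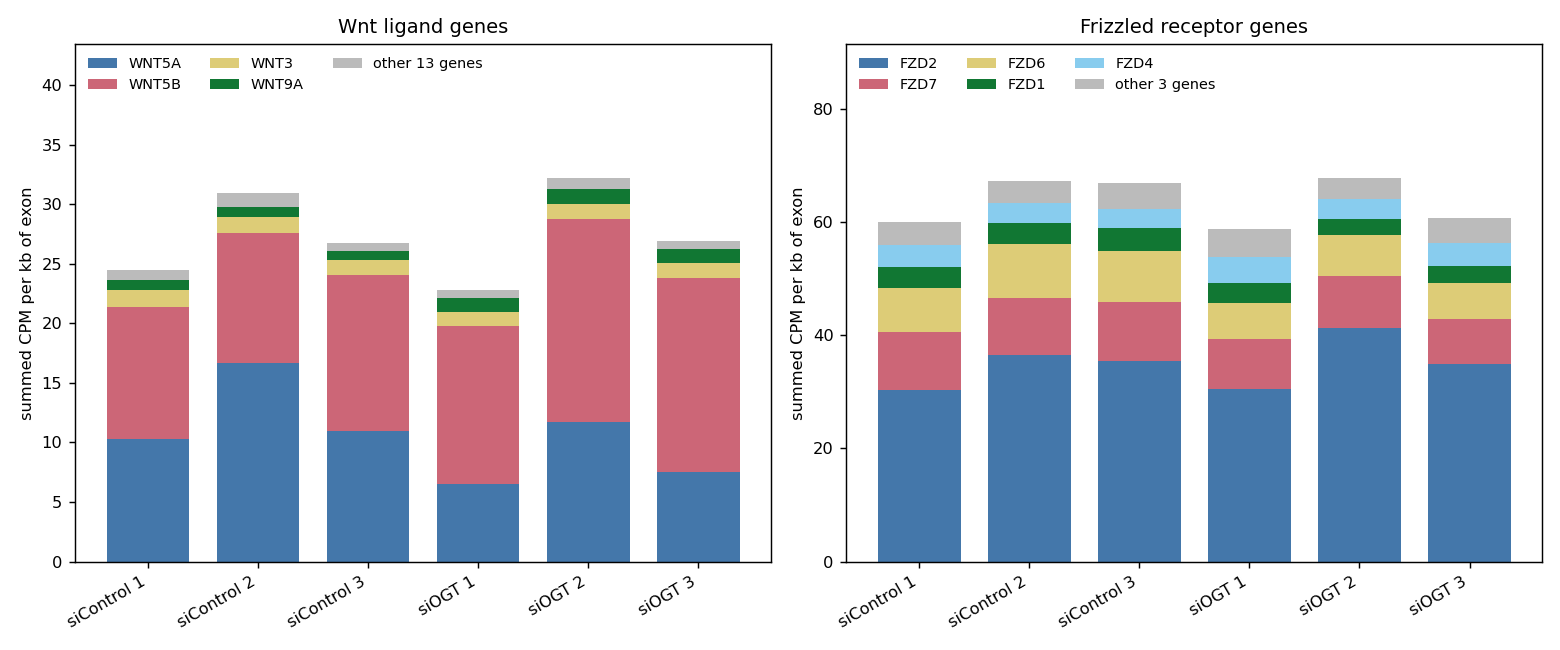
Make-up of the ligand pool and of the Frizzled pool in each library, as summed CPM per kb of exon (stacked bars, 1 per library, ordered by group and replicate). In the ligand pool WNT5A takes a smaller share of the bar and WNT5B a larger share in the siOGT libraries. FZD2 holds the largest portion of the Frizzled pool in all 6 libraries.

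The stretches before the main start sites of the 2 ligands are shown because these paralogs moved in opposite directions. Both are read 5' to 3' on the gene's own strand from the RefSeq promoter table (GRCh38.p14), with each CG in capitals. The first is chr3:55487399-55487556, minus strand, cut at the point where an exon of another WNT5A transcript begins. The second is chr12:1628981-1629230, plus strand.
WNT5A: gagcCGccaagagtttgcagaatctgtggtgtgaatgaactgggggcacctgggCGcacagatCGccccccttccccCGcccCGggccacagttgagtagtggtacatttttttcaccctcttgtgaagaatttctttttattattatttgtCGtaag
WNT5B: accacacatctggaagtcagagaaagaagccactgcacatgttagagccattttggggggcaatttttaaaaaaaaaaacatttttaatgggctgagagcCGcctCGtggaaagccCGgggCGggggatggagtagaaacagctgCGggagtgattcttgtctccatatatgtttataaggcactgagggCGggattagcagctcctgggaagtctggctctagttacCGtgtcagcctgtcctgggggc
The WNT5A stretch holds 6 CG in 158 bases and the WNT5B stretch 7 CG in 250 bases, so these counts are from unlike lengths. The full 250 bases before the start hold 14 CG for WNT5A, where 92 of them are exonic, and 7 for WNT5B. Windows of 300 bases took 250 bases before the start and 50 after it. GC made up 56.3% of that of WNT5A and 52.0% of that of WNT5B, with a median of 58.7% over 35116 windows of all genes. These windows hold 21 CG for WNT5A and 7 for WNT5B, with a median of 14 over all windows.

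The Frizzled receptors are seven-pass membrane proteins that bind Wnt ligands through an extracellular cysteine-rich domain. FZD1 (chr7:91264433-91271326, plus strand) was at 26.3, 25.5 and 28.1 CPM in siControl and 24.3, 19.5 and 20.8 CPM in siOGT. The groups did not overlap, with siOGT 1 nearest to the controls. Its mean fell from 26.6 ± 1.3601 to 21.6 ± 2.48 CPM (log2 fold change -0.31 ± 0.09 SE, edgeR with block, adjusted p = 0.0129). The adjusted p was 0.0607 by DESeq2 with the block and 0.0726 by edgeR without replicate 3.

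FZD7 (chr2:202033855-202038441, plus strand) was at 46.8, 45.9 and 48.3 CPM in siControl and 40.5, 42.0 and 36.3 CPM in siOGT. Again no siOGT library reached the lowest control, and the controls were tightly grouped. The mean fell from 47.0 ± 1.18 to 39.6 ± 2.99 CPM (log2 fold change -0.25 ± 0.07 SE, edgeR with block, adjusted p = 0.0200). This call was lost by DESeq2 with the block (adjusted p = 0.0665) and by edgeR without replicate 1 (0.0795) or replicate 3 (0.108).

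FZD2 (chr17:44557484-44561262, plus strand) stood apart from the other two receptors. It was at 114.7, 138.0 and 133.7 CPM in siControl and 115.1, 156.1 and 131.8 CPM in siOGT. The groups overlapped, and replicate 1 was lowest in both. The log2 fold change was 0.05 ± 0.07 SE (95% interval -0.08 to 0.19, edgeR with block, adjusted p = 0.598), and the replicate number held 88.8% of the spread. FZD2 was the most abundant Frizzled per kb of exon, with 34.1 CPM per kb in siControl against 10.2 for FZD7 and 3.86 for FZD1. The ratio of FZD7 to FZD2 counts was 0.408, 0.333 and 0.361 in siControl and 0.352, 0.269 and 0.275 in siOGT, lower within each pair but overlapping between the groups. The 8 Frizzled genes in the files summed to 64.7 ± 4.06 CPM per kb in siControl and 62.5 ± 4.68 in siOGT, of which FZD2 made up 52.6 ± 1.92% and 56.7 ± 4.64%. These receptors share little sequence at the scale of a read, since 0.468% of the 50-base stretches of FZD1, 2.09% of those of FZD2 and 0.441% of those of FZD7 occur in other genes of the files.

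LRP5 and LRP6 are single-pass co-receptors that join a Frizzled to pass the signal to beta-catenin. LRP5 (chr11:68312591-68449275, plus strand) was at 87.1, 97.3 and 97.4 CPM in siControl and 75.3, 91.9 and 77.6 CPM in siOGT. siOGT 2 lay above siControl 1, so the groups overlapped, and siOGT was the lower of every pair. The mean went from 93.9 ± 5.90 to 81.6 ± 9.003 CPM (log2 fold change -0.21 ± 0.07 SE, edgeR with block, adjusted p = 0.0329). The call was lost by DESeq2 with the block (adjusted p = 0.0674), with scaling to library totals (0.0543) and without replicate 1 (0.177) or replicate 3 (0.109).

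LRP6 (chr12:12116025-12267044, minus strand) was at 48.8, 39.6 and 45.7 CPM in siControl and 45.7, 43.3 and 37.0 CPM in siOGT. Pair 2 went up and pairs 1 and 3 went down, and the groups overlapped. Its log2 fold change was -0.09 ± 0.08 SE (95% interval -0.26 to 0.08, edgeR with block, adjusted p = 0.447). LRP5 held 77.9% of the summed CPM per kb of these co-receptors in siControl and 76.5% in siOGT.

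AXIN2 is a scaffold of the complex that marks beta-catenin for degradation and is itself switched on by beta-catenin, which makes it a negative-feedback gene. It lies on the minus strand of chr17:65528563-65561648. It was the scarcest of the 10, at 9.02, 8.05 and 8.92 CPM in siControl (241, 205 and 249 counts) and 5.37, 4.98 and 5.26 CPM in siOGT (145, 134 and 141 counts). Both groups were tight and far from each other, and the pairs gave log2 ratios of -0.74, -0.69 and -0.75. The level fell by 39.9% (log2 fold change -0.73 ± 0.12 SE, 95% interval -0.997 to -0.473, edgeR with block, adjusted p = 0.000384), with 97.3% of the spread held by the group. The adjusted p was 0.0533 by edgeR without the block and 0.00312 by DESeq2 without it. On the same strand, 25.3% of the 5197 exonic bases of AXIN2 also belong to a readthrough gene that is not listed in the files, and every AXIN2 value was a whole number.

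DKK1, a secreted inhibitor that binds LRP5 and LRP6 and keeps them from the Wnt complex, lies on the plus strand of chr10:52314281-52318042. It was at 115.6, 170.4 and 173.1 CPM in siControl and 84.6, 143.3 and 141.6 CPM in siOGT. Replicate 1 was low in both groups, so they overlapped, while siOGT was lower in all 3 pairs (log2 ratios -0.45, -0.25 and -0.29). The mean fell from 153.0 ± 32.4 to 123.2 ± 33.4 CPM (log2 fold change -0.33 ± 0.07 SE, edgeR with block, adjusted p = 0.00158), and the replicate number held 77.0% of the spread. Without replicate 1 the adjusted p was 0.0683, and by DESeq2 with the block it was 0.000368. An antisense gene on the other strand, PRKG1-AS1, covers 10.2% of its exonic bases, and the authors' counting used strand.

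DKK1 is known as a TCF/LEF target that feeds back on the pathway, so the 250 bases before its start site are shown with 2 motifs searched on both strands, the TCF/LEF core CTTTGA and the TEAD core GGAATG. The stretch is chr10:52314031-52314280, plus strand, from the RefSeq promoter table (GRCh38.p14), and the capitals mark the matches, TCAAAG being CTTTGA on the other strand.
DKK1: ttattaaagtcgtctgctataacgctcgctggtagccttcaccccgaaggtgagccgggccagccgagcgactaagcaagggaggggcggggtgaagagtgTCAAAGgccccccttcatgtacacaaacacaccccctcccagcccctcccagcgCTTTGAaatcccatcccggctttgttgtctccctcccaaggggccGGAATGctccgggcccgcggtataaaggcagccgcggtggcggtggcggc
Read along the plus strand, TCAAAG began 149 bases before the start, CTTTGA 95 bases before it and GGAATG 50 bases before it. The matches do not overlap each other. CTTTGA was found in 12.9% and GGAATG in 14.03% of the 35116 windows of 300 bases in the table. Of the 10 genes, 5 had windows there (WNT5A and WNT5B with 2 each, FZD1, LRP5 and DKK1 with 1 each). Among these 7 windows each motif was found in 1 window, that of DKK1. Each motif was also found in 6 of 98 windows of the other pathway genes. A match is a description of the letters and not a site. FZD2, FZD7, LRP6, AXIN2 and SFRP1 had no window in the promoter table, so their promoters were not searched for either motif.

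SFRP1, a secreted protein with a Frizzled-type cysteine-rich domain that can bind Wnt ligands, was by far the most abundant of the 10. It was at 1189, 1276 and 1179 CPM in siControl and 1068, 1170 and 921.6 CPM in siOGT. siOGT 2 came close to the lowest control, and the groups did not overlap. The mean fell from 1214 ± 53.2 to 1053 ± 125.1 CPM (log2 fold change -0.21 ± 0.07 SE, edgeR with block, adjusted p = 0.0347). DESeq2 with the block gave an adjusted p of 0.0146. The call was lost with scaling to library totals (adjusted p = 0.0536) and without replicate 1 (0.171) or replicate 3 (0.124).

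**Figure D3:**
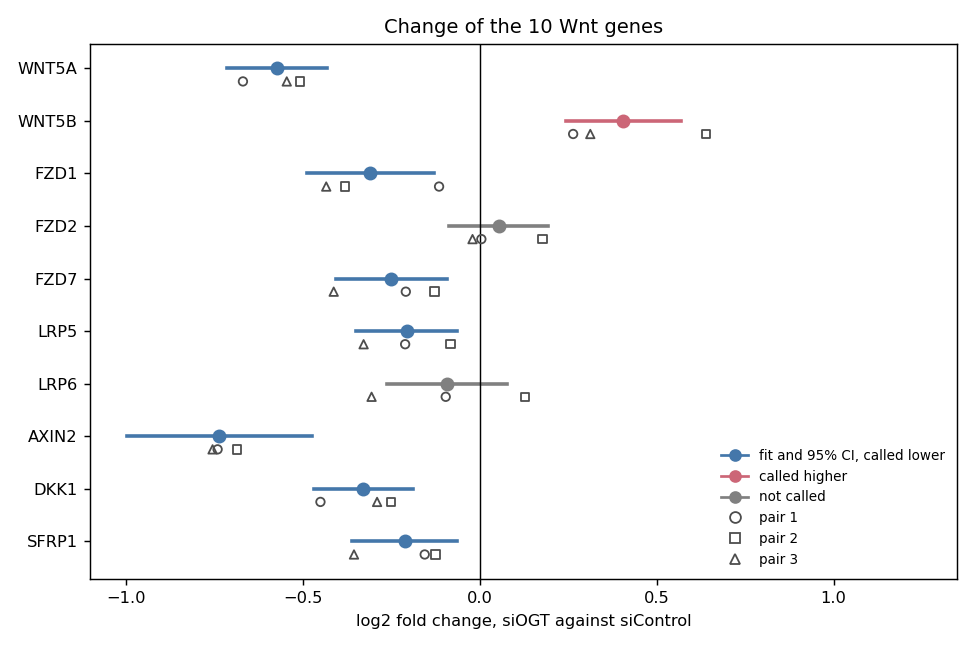
Log2 fold change of siOGT against siControl for the 10 Wnt genes, grouped by role, with 95% intervals from the edgeR fit with the replicate block and 1 point for each of the 3 pairs. The intervals of AXIN2 and WNT5A lie furthest below 0 and that of WNT5B lies above it, while those of FZD2 and LRP6 include 0.

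Per kb of exon, the order of the 10 levels in siControl was SFRP1 (256.6 CPM per kb), DKK1 (68.9), FZD2 (34.1), LRP5 (15.2), WNT5A (12.6), WNT5B (11.7), FZD7 (10.2), LRP6 (4.31), FZD1 (3.86) and AXIN2 (1.67). Neighbours did not all stand apart: the siControl libraries of WNT5A (10.3 to 16.7 CPM per kb) overlapped those of LRP5 (14.1 to 15.8) and of WNT5B (10.9 to 13.1), and those of LRP6 (3.82 to 4.71) overlapped those of FZD1 (3.69 to 4.08). In the siControl libraries, the inhibitors SFRP1 and DKK1 were at a higher transcript level than any ligand, receptor or co-receptor among the 10. In siOGT, WNT5B (15.5 CPM per kb) ranked above LRP5 (13.2), and WNT5A (8.57) ranked below FZD7 (8.63), although their libraries overlapped.

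Beyond the 10, a list of 98 other Wnt pathway genes had 88 members in the files, of which 73 passed the filter and 15 had at most 8 counts over all libraries together. Of the 73 tested, 11 were called higher and 11 lower, 30.1% in all, with a median log2 fold change of 0.03. That share is near the 25.4% of all genes tested that were called (12.7% each way). The 22 called genes were among the 60 that averaged 1 CPM or more, a level at which 29.9% of all genes tested were called. Without replicate 1, 9 of these pathway genes were called, 2 higher and 7 lower. By role, higher and lower calls numbered 1 and 0 of 9 ligands, 1 and 1 of 2 secretion genes, 0 and 4 of 11 receptors and co-receptors, 0 and 1 of 5 extracellular modulators, 2 and 2 of 17 cytoplasmic relay genes, 5 and 1 of 13 nuclear factors, 0 and 1 of 8 feedback targets and 2 and 1 of 8 planar polarity genes. Without the block edgeR called 3 of the 73, all lower: KREMEN1, TCF7 and VANGL1.

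Of the 11 receptors and co-receptors tested 7 were not called and 4 were called lower, and of the 5 extracellular modulators 4 were not called and 1 was called lower, against 12.7% of all genes tested called lower. KREMEN1, a transmembrane receptor that acts with DKK1 to remove LRP6 from the surface, was at 22.6, 19.9 and 19.5 CPM in siControl and 13.0, 9.25 and 8.21 CPM in siOGT. The groups were well separated, with a log2 fold change of -1.04 ± 0.10 SE (edgeR with block, adjusted p = 2.48e-06). Of the receptors of the beta-catenin-independent branches, ROR2 (log2 fold change -0.21), RYK (-0.20) and PTK7 (-0.40) were called lower. ROR1, a gene named here after its values were seen, was not called (-0.10, edgeR with block, adjusted p = 0.390). The receptor FZD6 was also called lower (-0.38, from 35.7 to 27.4 CPM). ROR2 and RYK were close to the threshold (edgeR with block, adjusted p = 0.0371 and 0.0426) and lost the call by DESeq2 with the block (0.0876 and 0.125). TNFRSF19, a membrane receptor listed among the feedback targets, was lower by 0.45 on the log2 scale. The other 7 of the 8 feedback targets tested were not called.

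WLS, the carrier that takes Wnt ligands to the cell surface, fell from 88.8 ± 1.07 to 73.4 ± 3.55 CPM (log2 fold change -0.28, edgeR with block, adjusted p = 0.00489). PORCN, the enzyme that adds the lipid to Wnt ligands, went the other way by 0.27 on the log2 scale (adjusted p = 0.0225), but was higher in only 2 of 3 pairs and lost the call by DESeq2 with the block (0.0724). WNT9A rose from 3.11 ± 0.07 to 4.77 ± 0.09 CPM (log2 fold change 0.62, adjusted p = 0.0112), at 81 to 130 counts per library, and its adjusted p by DESeq2 with the block was 0.0823. These 3 genes put the ligand WNT9A and the secretion genes beside WNT5A and WNT5B, with changes in both directions.

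Within the cell, CTNNB1, which encodes beta-catenin, fell from 241.1 ± 17.0 to 201.0 ± 9.53 CPM (log2 fold change -0.26, edgeR with block, adjusted p = 0.00598), and GSK3B, the kinase that marks beta-catenin for degradation, fell by a like amount (-0.26, adjusted p = 0.00571). The higher calls were APC2 and TNKS in the cytoplasmic relay, and PYGO2, BCL9L and the TLE corepressors TLE1, TLE2 and TLE3 in the nucleus, at log2 fold changes of 0.22 to 0.56. Most of these calls were not stable: APC2 (adjusted p = 0.12) and TLE2 (0.214) lost theirs by DESeq2 with the block, and by edgeR without replicate 1 so did APC2 (0.0887), TLE2 (0.239), TNKS (0.089), BCL9L (0.249), TLE1 (0.189) and TLE3 (0.169). The calls of CTNNB1 (0.0624) and GSK3B (0.0521) were also lost without replicate 1. TCF7, one of the DNA-binding TCF/LEF factors, fell from 7.15 ± 1.3561 to 3.07 ± 0.33 CPM (log2 fold change -1.21, adjusted p = 3.51e-05). LEF1 was low in both groups (1.47 and 0.929 CPM) and was not called (log2 fold change -0.67, adjusted p = 0.117), nor was TCF7L2 (0.09, adjusted p = 0.437). Per kb of exon, TCF7 made up 2.38% of the 4 TCF/LEF genes in siControl and 0.992% in siOGT, against 75.6% and 76.5% for TCF7L1, a gene named here after its values were seen. Of the planar polarity genes, VANGL1 was lower (-0.69, adjusted p = 1.10e-05), and CELSR3 and DAAM1 were each higher by 0.30 on the log2 scale, with DAAM1 at an adjusted p of 0.116 by edgeR without replicate 1.

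**Figure D4:**
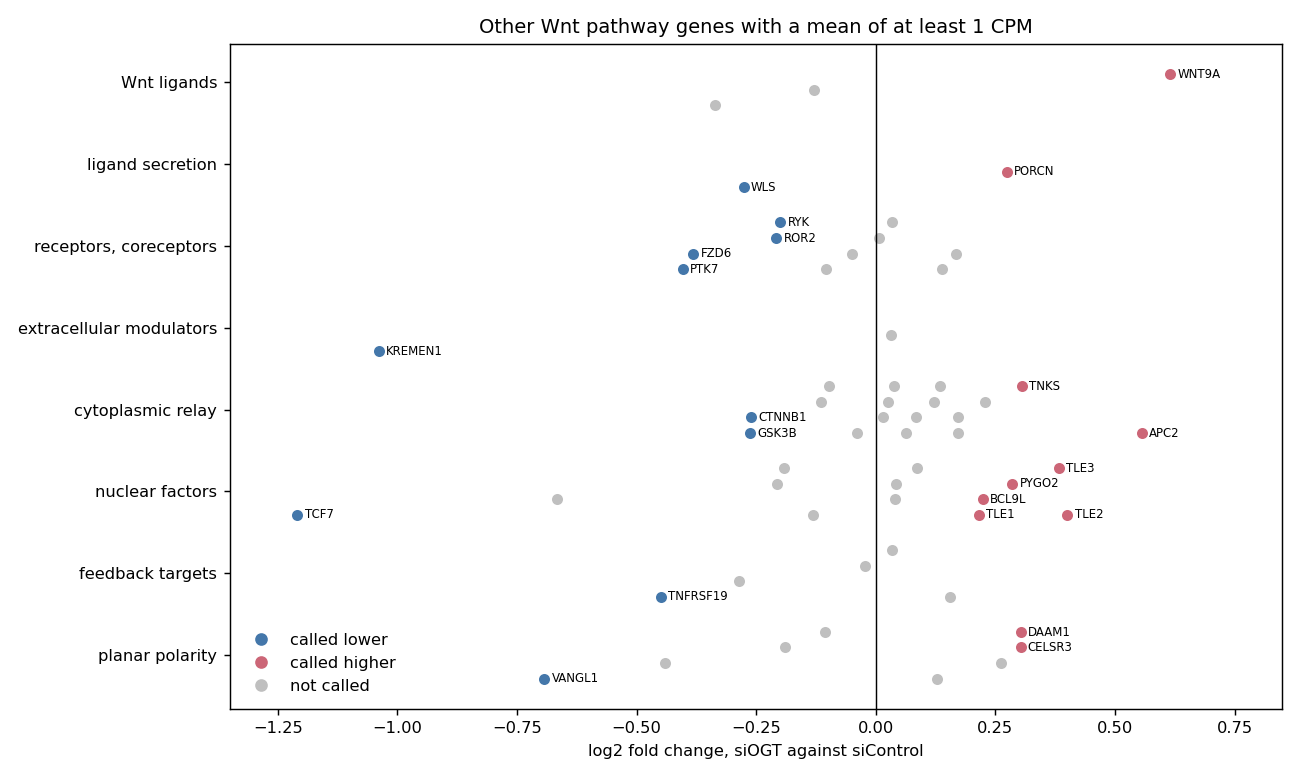
Log2 fold change of siOGT against siControl for the other Wnt pathway genes that averaged 1 CPM or more (60 of the 73 tested), by role, with called genes marked and named. The 4 called receptors lie below 0 and the others on both sides of it, and TCF7 and KREMEN1 lie furthest to the left of the called genes.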

How the data were processed

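Poly(A) RNA of LX-2 cells was sequenced as stranded paired-end libraries, 3 per group. Per the study's methods and the submitters' processing notes, the authors aligned reads to hg38 with Bowtie2 (2.3.5.1) and deposited one table of estimated counts per library from RSEM (1.3.1), which divides ambiguous reads among genes, so values need not be whole. A table of the authors' own comparison (means, fold changes and p-values from DESeq2 1.36.0) was not used.

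Counts were rounded to whole numbers. Genes with a total under 10 were removed (2054 genes holding 0.00447% of counts). The remaining 14853 were tested in edgeR (4.0.16, R 4.3.3) with TMM factors, a quasi-likelihood F test (two-sided) with group and replicate number as terms, and Benjamini-Hochberg adjustment over all genes tested, called at 0.05. The study's methods pair libraries by replicate number and describe independent experiments; deviations of same-numbered libraries correlated at 0.688, 0.525 and 0.332 over 12373 genes. No 2 libraries of a group were duplicates. Standard errors were derived from the F statistic. Exonic lengths and coordinates are from GENCODE 44 (hg38), promoters from RefSeq (GRCh38.p14).

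The 10 genes and OGT were named by rule, and other pathway genes where called with a mean of at least 1 CPM, with CTNNB1, TCF7L2, LEF1, WLS and ROR2 named regardless. The genes, lists and tests were chosen with earlier results of these data known. Alternatives were the fit without the block, DESeq2 (1.42.0), other scalings and filters, leaving out each replicate number, and summing counts of paralogs.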

Additional observations from a re-analysis of the deposited data

How the results depend on the processing

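Pairing by replicate number mattered most. Without the replicate block, edgeR called 130 genes rather than 3766, 0 of the 10 Wnt genes (0 higher and 0 lower, with 1 and 4 at an unadjusted p under 0.05) and 3 of the 73 other pathway genes (0 higher, with 3 at an unadjusted p under 0.05, and 3 lower). DESeq2 with the replicate block called 2415 genes, 5 of the 10 (4 lower) and 16 pathway genes (7 higher and 9 lower). DESeq2 with no replicate block called 849 genes, 2 of the 10 (1 lower) and 4 pathway genes, 0 as higher (3 at an unadjusted p under 0.05) and 4 as lower. Leaving out one replicate number in turn gave 1803 to 3439 genes, 4 to 8 of the 10 (1 higher in each, 3 to 7 lower) and 9 to 22 pathway genes (2 to 10 higher, 7 to 12 lower), with the fewest genes called without replicate 1. WNT5A, WNT5B and AXIN2 kept their calls in each of these 3 fits. Direction turned for FZD2 (log2 fold changes -0.0097 to 0.086 over these 3 fits) and LRP6 (-0.20 to 0.0080), neither called in any fit, and where paralogs were summed (WNT5A with WNT5B, -0.15; FZD1, FZD2 and FZD7, -0.053). With median-ratio size factors, filterByExpr or no filter, all 35 named genes kept their side of the threshold; scaling to library totals lost 4. The cause of these differences was not tested. Groups of 3 libraries limit what can be seen, and AXIN2 rests on the fewest counts of the 10.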
